A study of Mus musculus with 5 samples.

Results

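The interferon-stimulated genes are a set of genes whose transcription rises when a cell senses type I or type II interferon. A list of 43 such genes was followed through neutrophil maturation and into the other blood cells of a neutrophil sort, and 42 of them matched a row of the count matrix, which held 21995 genes. Mx2 was not analysed here. The members were listed by name, and all 42 passed the filter on low counts. The cells came from C57BL/6 mice kept at steady state under specific-pathogen-free conditions. They were taken from lung, liver, spleen, intestine, blood and bone marrow and sorted as living CD11b+ Ly6G+ cells. Each of 2 rounds filled its own BD Rhapsody cartridge, a microwell system that tags each captured mRNA with a unique molecular identifier (UMI), and gave 1 pool, named YO1 or YO2. Each pool joined cells of old mice, aged 20 months, with cells of young mice, whose age is 10 weeks in the labels of the samples but 8 weeks in the text on the design. The barcodes of the matrix carried neither tissue nor age, so every class below mixes both, and no comparison of tissues or ages was made.

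Type I interferon binds the receptor Ifnar1 and Ifnar2, whose kinases Jak1 and Tyk2 activate transcription factors that bind, with Irf9, a DNA element called the interferon-stimulated response element. The proteins made in response bind foreign RNA, cut or block viral transcripts, or attach the ubiquitin-like protein Isg15 to other proteins. In neutrophils a low level of this program is present without infection, and neutrophils with a high level have been described as a separate state. Neutrophils mature in the bone marrow from dividing precursors, through cells that make the secondary granule proteins Ltf, Ngp and Camp, to segmented cells that leave for the blood.

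The promoters of 6 members are shown because these genes are described at length below: 3 with a match to an interferon response motif (Isg15, Ifit3 and Rsad2) and 3 without (Oasl2, which leads the member sum in mature cells, and Sp100 and Samd9l, which lead it in cycling and Ltf-high cells). They were picked to show both kinds. Each line is the 250 bases before the RefSeq transcript start in GRCm38.p6, 5′ to 3′ on the strand of the gene. Capitals mark matches to a core of the response element, GAAA followed by any 2 bases and GAAA again, or to TTTC, any 2 bases and TTTC, which is the same core on the other strand.
Isg15 (chr4:156200819-156201068, minus strand): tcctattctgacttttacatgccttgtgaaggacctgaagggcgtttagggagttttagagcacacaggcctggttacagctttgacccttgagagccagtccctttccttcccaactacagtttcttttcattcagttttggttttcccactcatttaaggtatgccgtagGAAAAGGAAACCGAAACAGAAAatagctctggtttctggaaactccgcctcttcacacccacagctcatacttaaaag
Ifit3 (chr19:34583279-34583528, plus strand): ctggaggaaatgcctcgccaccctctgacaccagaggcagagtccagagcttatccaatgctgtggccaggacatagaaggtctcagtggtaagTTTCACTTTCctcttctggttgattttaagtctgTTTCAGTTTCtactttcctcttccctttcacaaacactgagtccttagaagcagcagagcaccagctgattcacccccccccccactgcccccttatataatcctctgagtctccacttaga
Rsad2 (chr12:26456453-26456702, minus strand): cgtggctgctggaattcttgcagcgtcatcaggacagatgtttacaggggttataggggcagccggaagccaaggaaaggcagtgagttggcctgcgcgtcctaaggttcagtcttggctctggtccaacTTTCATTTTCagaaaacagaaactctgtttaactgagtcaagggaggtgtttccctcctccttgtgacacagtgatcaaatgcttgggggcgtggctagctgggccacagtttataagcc
Oasl2 (chr5:114896684-114896933, plus strand): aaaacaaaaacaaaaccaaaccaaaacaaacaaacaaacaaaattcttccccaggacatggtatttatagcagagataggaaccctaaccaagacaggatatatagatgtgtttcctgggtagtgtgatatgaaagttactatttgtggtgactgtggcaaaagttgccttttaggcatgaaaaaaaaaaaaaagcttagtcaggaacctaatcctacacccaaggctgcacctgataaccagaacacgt
Sp100 (chr1:85649738-85649987, plus strand): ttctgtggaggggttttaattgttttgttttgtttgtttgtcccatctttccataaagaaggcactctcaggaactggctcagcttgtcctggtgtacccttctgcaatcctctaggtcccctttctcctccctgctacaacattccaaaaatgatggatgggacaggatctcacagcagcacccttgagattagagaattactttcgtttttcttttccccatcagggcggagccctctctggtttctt
Samd9l (chr6:3399572-3399821, minus strand): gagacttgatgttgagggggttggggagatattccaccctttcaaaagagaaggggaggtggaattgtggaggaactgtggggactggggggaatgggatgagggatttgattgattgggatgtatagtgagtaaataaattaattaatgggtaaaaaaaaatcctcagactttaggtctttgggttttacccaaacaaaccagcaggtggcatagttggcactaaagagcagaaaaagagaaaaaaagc
Isg15, the ubiquitin-like modifier, held 3 overlapping matches that began 78, 72 and 66 bases before its start. Ifit3, of the Ifit family, held 2, and Rsad2, the antiviral enzyme viperin, held 1 that began 120 bases before the start. The windows of Oasl2, Sp100 and Samd9l held no match. For Sp100 the table lists a second start, whose window held none either. Ifit2, the member most concentrated in few mature cells, had no match in either of its 2 windows, while Trim30a, spread over more cells, had a match in both of its 2 windows. Promoter windows of 300 bases, from 250 before to 50 after the start, were listed for 33 of the 43 members, and 15 of these genes (45.5%) had a match on either strand, against 1079 of all 27025 genes in the table (3.99%). A match is a description of the letters in the window and says nothing of which factor binds there.

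In the GENCODE annotation of GRCm38 all 42 members are protein-coding genes, and several sit beside one another. Ifit2, Ifit3, Ifit3b and Ifit1 lie between positions 34550694 and 34650009 of chromosome 19. Oasl2 and Oasl1 lie on chromosome 5 from 114896936 to 114937915, and Oas2, Oas3 and Oas1a on the same chromosome from 120730333 to 120907521. Rsad2 (chromosome 12, 26442746 to 26456452, minus strand) is next to Cmpk2 (26469204 to 26479837, plus strand). Dtx3l ends at 35939151 on the minus strand of chromosome 16, and Parp9 begins inside it at 35938470 on the plus strand. Whether strand was used in counting is not given in the sources used here, so reads from that overlap cannot be assigned to 1 of the pair. Ifit3 and Ifit3b are near-identical copies, Sp100 has many copies in the mouse, and Oas1a, Ifi204, Ifi213 and Trim30a have close relatives, so the counts of these genes are uncertain where reads could fall on a copy.

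The filter left 19505 cells of YO1 with 39443159 UMIs and 17215 cells of YO2 with 41276091 UMIs. The pools shared 406 cell labels, which are bead codes and not cells. Neutrophil classes were set by UMI counts of genes outside the member list: cycling cells had at least 2 UMIs of Mki67 and Top2a together, Ltf-high cells at least 5 UMIs of Ltf, late immature cells at least 10 UMIs of Ngp with fewer than 5 of Ltf, and mature cells at least 2% of their UMIs from S100a8 and S100a9 with fewer than 3 of Ngp. Activated cells had at least 3 UMIs of Il1a, Icam1 and Nr4a3 together. The planned minimum of 2% S100a8 and S100a9 was dropped for them, since it left 13 cells in YO1. Their median share of S100a8 and S100a9 was 2.42% in YO1 and 0.545% in YO2, in YO2 below the limit of the mature class. Other cells were gated by marker lists and are called monocyte-like, macrophage-like and lymphocyte-like. Some marker genes ordered the stages as named and others did not. Camp stood at 20600 and 18037 CPM, the UMIs of a gene scaled to a common total, in the cycling cells of YO1 and YO2. In the mature cells it stood at 66.8 and 8.59. Cxcr2, the chemokine receptor of mature neutrophils, stood at 231 and 602 against 3133 and 3953. Mmp8 and Retnlg, also listed as mature markers, were highest in late immature cells. There Mmp8 stood at 11241 and 10527, against 1610 and 1185 in mature cells, and Retnlg at 49305 and 52316 against 13775 and 8827. Gates on UMI counts favour deep cells, and the median cell had 5751.5 UMIs in the cycling class of YO1 against 1004 in the mature class. For that reason the members are given both as a share of UMIs and as UMIs per cell. In the lymphocyte-like class of YO1, 17 of 402 cells (4.23%) carried 3 or more UMIs of the granule protease genes Elane, Mpo, Prtn3 and Ctsg, and results for this class are also given without them.

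The summed members took a larger share of the transcriptome in mature neutrophils than in earlier stages. In the cycling class the share was 0.0971% of UMIs in YO1 and 0.127% in YO2. It was 0.174% and 0.204% in Ltf-high cells, 0.221% and 0.408% in late immature cells, and 0.380% and 0.442% in mature cells. The mean over pools was 0.112% ± 0.021 (SD, n = 2) in cycling cells and 0.411% ± 0.044 (SD, n = 2) in mature cells, and the pools of these classes did not overlap. Late immature cells overlapped with mature cells, because YO2 had 31 late immature cells of which 1 held 126 of the 369 member UMIs (34.1%), and without that cell the share was 0.276%. No p is given for the sum over a chosen list.

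Per cell, the order was different. A cycling cell held 5.82 member UMIs on average in YO1 and 7.85 in YO2, an Ltf-high cell 5.35 and 8.75, and a mature cell 4.16 and 6.55. The smaller share of the early stages was therefore a share of a larger total, with members at a similar or higher number of UMIs per cell. Whether capture or RNA content sets the number of UMIs of a cell cannot be told apart here.

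**Figure D1:**
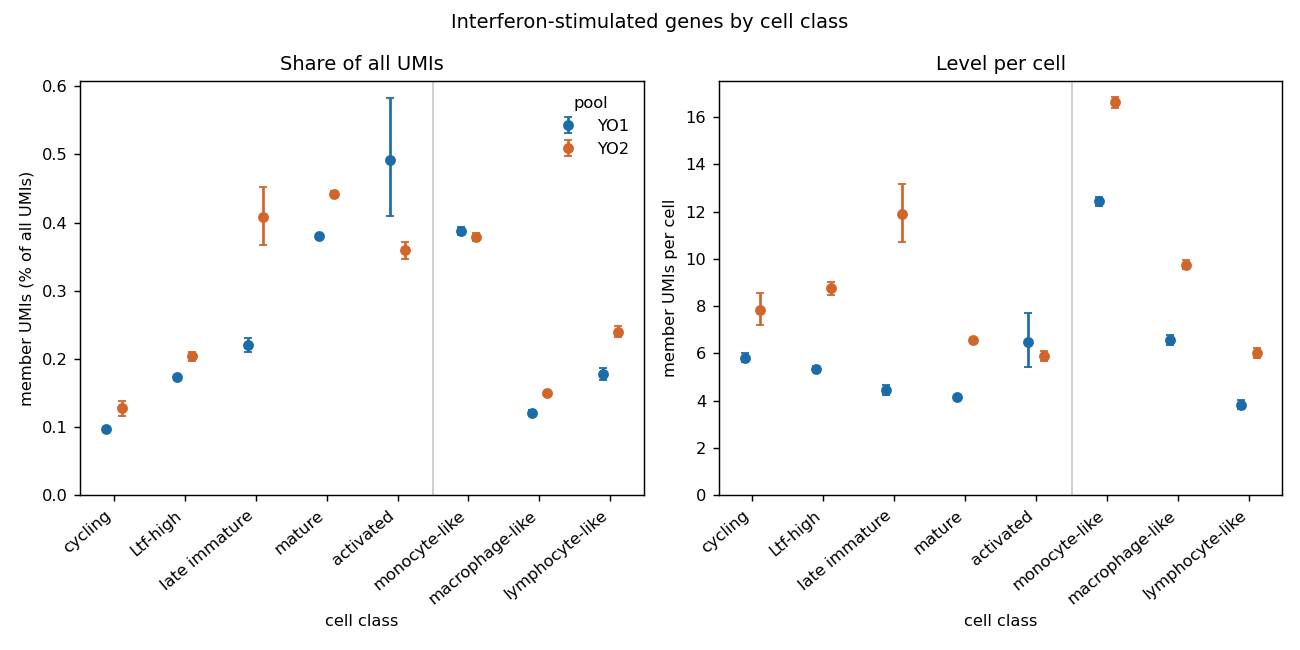
Summed UMIs of the 42 members in each cell class, as a percentage of all UMIs (left) and as UMIs per cell (right), with 1 point per pool and 95% Poisson intervals that cover counting error only. The share is lowest in cycling cells (0.0971% and 0.127%) and the level per cell is highest in monocyte-like cells (12.4 and 16.6).

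The genes that made up the sum also changed with stage. Sp100, a component of nuclear bodies, and Samd9l, a restriction factor that limits translation, together gave 45.4% and 36.3% of the member UMIs in cycling cells of YO1 and YO2, 46.5% and 41.9% in Ltf-high cells, 31.1% and 21.7% in late immature cells, and 12.3% and 11.0% in mature cells. In mature cells the 5 leading members were Oasl2, Trim30a, Rsad2, Sp100 and Rtp4, with mean levels of 728, 449, 348, 329 and 293 CPM. The Oas family, whose members sense double-stranded RNA or resemble the sensors, went from 4.48% and 10.4% of member UMIs in cycling cells to 21.6% and 23.4% in mature cells. The Ifit family gave 2.93% and 4.83% in cycling cells, 1.29% and 2.34% in Ltf-high cells and 5.40% and 6.39% in mature cells. These 2 genes thus took a larger part of the early sum than of the mature sum, and the other 40 members made up the rest.

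Oasl2, a relative of the Oas enzymes, stood at 25.4 and 100.8 CPM in cycling cells and 62.0 and 144 in Ltf-high cells. It stood at 151 and 409 in late immature cells and 627 and 829 in mature cells. Trim30a, a tripartite-motif protein that dampens inflammatory signalling, stood at 29.6 and 68.8, then 75.6 and 128, then 142 and 209.9, and 391 and 506. Irf7, the transcription factor that amplifies the interferon response, stood at 13.6 and 22.1, then 37.8 and 44.0, then 65.1 and 55.2, and 129.7 and 129.9. The mature level was above every earlier one in both pools for each of these genes. In all, 20 of the 42 members had their highest level of the 4 stages in mature cells in both pools, and for 12 the level was higher at each step from cycling to mature in both pools (Oasl1, Oasl2, Irf7, Ifi204, Ifih1, Parp14, Trafd1, Ifi35, Trim30a, Isg20, Dtx3l and Rtp4). How many of all genes do so was not counted, so neither count can be read as particular to the members. Some of these steps rest on few UMIs in YO2, whose 31 late immature cells held 90527 UMIs in all. Ifi35, for example, stood at only 15.2 CPM in Ltf-high cells and 24.6 CPM in mature cells of YO2.

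Other abundant members followed the same order. Rtp4, a chaperone of receptors at the cell surface, stood at 14.8 and 51.6 in cycling cells, 41.1 and 63.5 in Ltf-high cells, 85.5 and 121 in late immature cells and 256 and 330.4 in mature cells. Isg20 went from 16.0 and 34.4 through 33.0 and 41.3 and then 69.9 and 133 to 189.7 and 199.6, and Dtx3l from 27.5 and 36.9 through 42.02 and 55.9 and then 48.2 and 99.4 to 83.6 and 120.0. Oas3 differed, since it was as high in late immature cells (108 and 110.5) as in mature cells (96.6 and 96.1), after 8.77 and 14.7 in cycling cells and 48.0 and 48.9 in Ltf-high cells.

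A smaller group peaked earlier. Sp100 stood at 297 and 337 CPM in cycling cells, 501 and 584 in Ltf-high cells, 360.2 and 508 in late immature cells and 310.5 and 347 in mature cells, so that the Ltf-high level was the highest in both pools. Samd9l stood at 144 and 125, then 306 and 270.3, then 326 and 376, and 156 and 139.8. Zbp1, Xaf1, Dhx58, Oas1a and Oas3 also had their highest value in late immature cells in both pools, and Mitd1 and Lgals3bp in cycling cells. Apart from Mitd1 (106 and 12 UMIs) and Oas3 (90 and 10) these peaks rest on few UMIs in YO2, between 1 for Lgals3bp and 3 for Zbp1, Dhx58 and Oas1a. The other 13 members peaked in different stages in the 2 pools. They include Rsad2 (104 and 398 CPM in late immature cells, 313 and 382 in mature cells), Isg15 (57.8 and 254 against 210.4 and 198) and Ifit1 (25.3 and 209.9 against 79.8 and 116), for which the few late immature cells of YO2 were high.

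**Figure D2:**
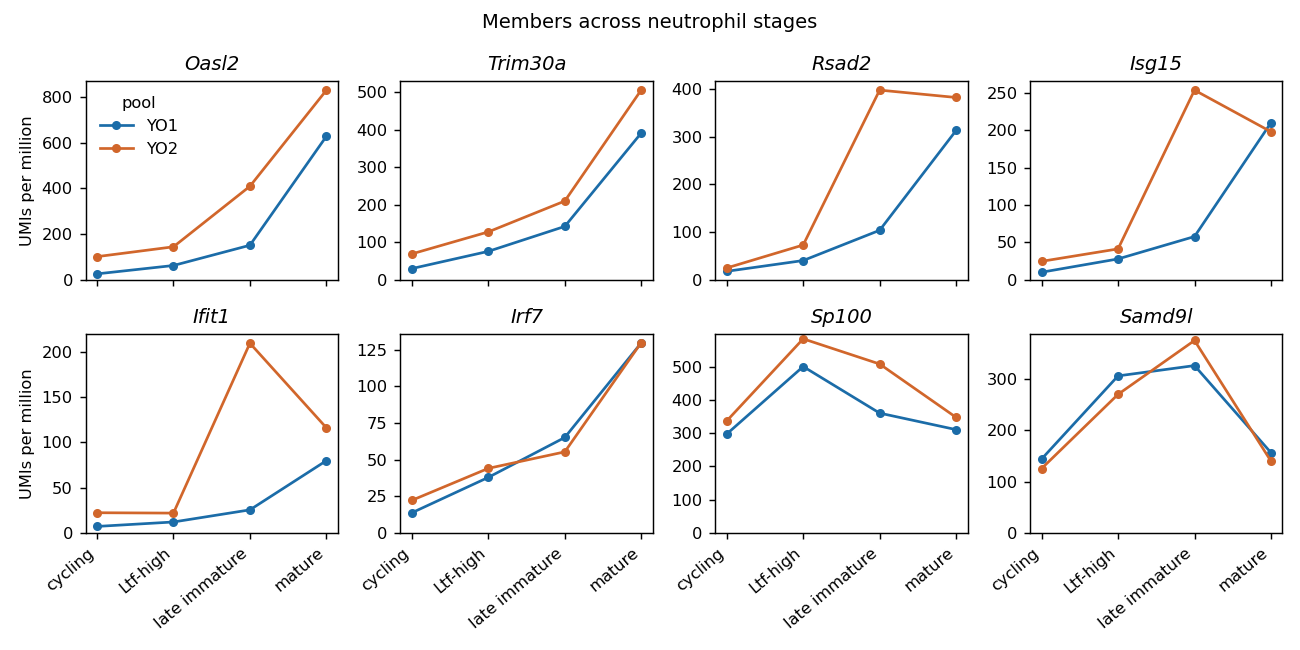
Level of 8 members in CPM across 4 neutrophil stages, with 1 line per pool. Oasl2, Trim30a and Irf7 are highest in mature cells in both pools, Sp100 in Ltf-high cells and Samd9l in late immature cells, while Rsad2, Isg15 and Ifit1 differ between the pools in late immature cells.

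Tests used sums of UMIs per pool and class, fitted across 11406 genes with edgeR's quasi-likelihood test, the pool as a block and Benjamini-Hochberg adjustment. The spread behind the p-values was estimated for each gene over 14 sums of 7 classes together. With the pool as a block, this spread is how much the difference between the pools varies from class to class. With 1 library per pool, it is not the spread between mice. Changes are log2 changes against mature neutrophils after TMM scaling. The median over all genes ranged from -0.74 in late immature to 0.33 in macrophage-like cells, so it is given beside each member median.

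Cycling precursors were lower than mature neutrophils in 37 members and higher in 0, where 31.0% of all tested genes were lower and 29.1% higher. The members' median change was -2.26, or -2.25 over the 40 members with a UMI in both classes, against -0.11 over all genes. Among members with at least 10 UMIs in each pool of the cycling class, Rsad2 (log2 change -4.67, SE 0.30, edgeR adjusted p = 1.9e-10, from 58 and 10 UMIs), Isg15 (-4.58, SE 0.37, adjusted p = 2e-08, from 33 and 10) and Oasl2 (-4.54, SE 0.36, adjusted p = 2.7e-08, from 84 and 41) had the largest decreases. Ifi204, a cytosolic DNA sensor (-5.49, SE 0.36, adjusted p = 2.6e-10), and Oasl1 (-4.66, SE 0.40, adjusted p = 6e-09) were also called but rest on 10 and 1 and on 9 and 3 cycling UMIs. The smallest were Eif2ak2, the RNA-activated kinase PKR (-0.53, SE 0.21, adjusted p = 0.039), Sp100 (-0.66, SE 0.19, adjusted p = 0.0051) and Samd9l (-0.72, SE 0.21, adjusted p = 0.0062). Eif2ak2 lost its call without either pool of either class and turned to 0.08 with scaling by total UMIs, and Sp100 lost its call without YO1 of the cycling class and Samd9l without YO1 of the mature class. With total-UMI scaling Sp100 (-0.05) and Samd9l (-0.11) were not called either, and Sp100 stood at 95.7% and 96.9% of its mature CPM. With total UMIs as the scale, the all-gene median shifted by 0.59, and 30 members were lower (20.0% of genes) and 1 higher (41.1% of genes). DESeq2 gave 28 lower (19.1%) and 1 higher (39.0%). Ifi213 and Mx1 had no UMI in cycling cells and at most 1.04 CPM in mature cells, so no fold is given for them.

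On the scale of UMIs per cell, the same contrast gave 11 members lower (2.69% of genes) and 19 higher (80.2%) of 41 tested. Those lower on all 3 scales were Ifi204, Rsad2, Oasl1, Isg15, Oasl2, Ifit3b, Rtp4, Trim30a, Oas3, Isg20 and Irf7. These 11 genes were fewer per cell in dividing precursors although such a cell yielded more UMIs.

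Ltf-high cells were lower than mature cells in 29 members and higher in 2, where 28.1% of all genes were lower and 17.2% higher. The median was -1.28 for members and -0.28 for all genes. Oasl1 (log2 change -3.92, SE 0.31, edgeR adjusted p = 5.6e-09), Ifit3b (-3.68, SE 0.41, adjusted p = 5.7e-06) and Ifit3 (-3.52) were the lowest of the members with a UMI in both pools of the class. Samd9l (0.72, SE 0.20, adjusted p = 0.0053) and Sp100 (0.47, SE 0.18, adjusted p = 0.04) were the members that were higher. Both were higher on the total-UMI and per-cell scales too, but Sp100 lost its call without any 1 of the 4 sums and Samd9l without YO2 of the mature class or YO1 of the Ltf-high class. Of the other members, 11 passed in neither direction, among them Cmpk2 (0.05), which makes nucleotides beside Rsad2, Helz2 (0.03), a helicase, and Eif2ak2 (0.08). All 4 Ifit genes and all 3 of the Isg15 group (Isg15, Usp18 and Herc6) were lower, as were 4 of 5 Oas genes and 5 of 7 sensors. With total-UMI scaling the counts were 29 lower (22.3% of genes) and 2 higher (22.9%), and with DESeq2 24 lower (17.2%) and 2 higher (24.4%). Per cell, 10 members were lower (3.61%) and 18 higher (67.9%) of 41.

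Late immature cells were lower than mature cells in 15 members and higher in 1, where 14.4% of all genes were lower and 3.51% higher. The median of the members was -0.93, or -0.76 over the 38 with a UMI in both classes, near that of all genes at -0.74. Oasl1 (-3.54, SE 0.54, edgeR adjusted p = 0.00014), Oasl2 (-1.98, SE 0.33, adjusted p = 0.00069) and Trim30a (-1.68, SE 0.25, adjusted p = 0.00012) were lower, and Samd9l (0.87, SE 0.22, adjusted p = 0.009) was higher. Without YO1 of the late immature class, the median was -0.904 for members and -2.42 for all genes. Oasl1, Oasl2 and Samd9l lost their calls in that fit. Total-UMI scaling gave 7 lower (8.09%) and 1 higher (4.82%), scaling by cells 1 lower (1.29%) and 8 higher (18.4%), and DESeq2 gave 7 lower (7.26%) and 2 higher (8.16%).

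**Figure D3:**
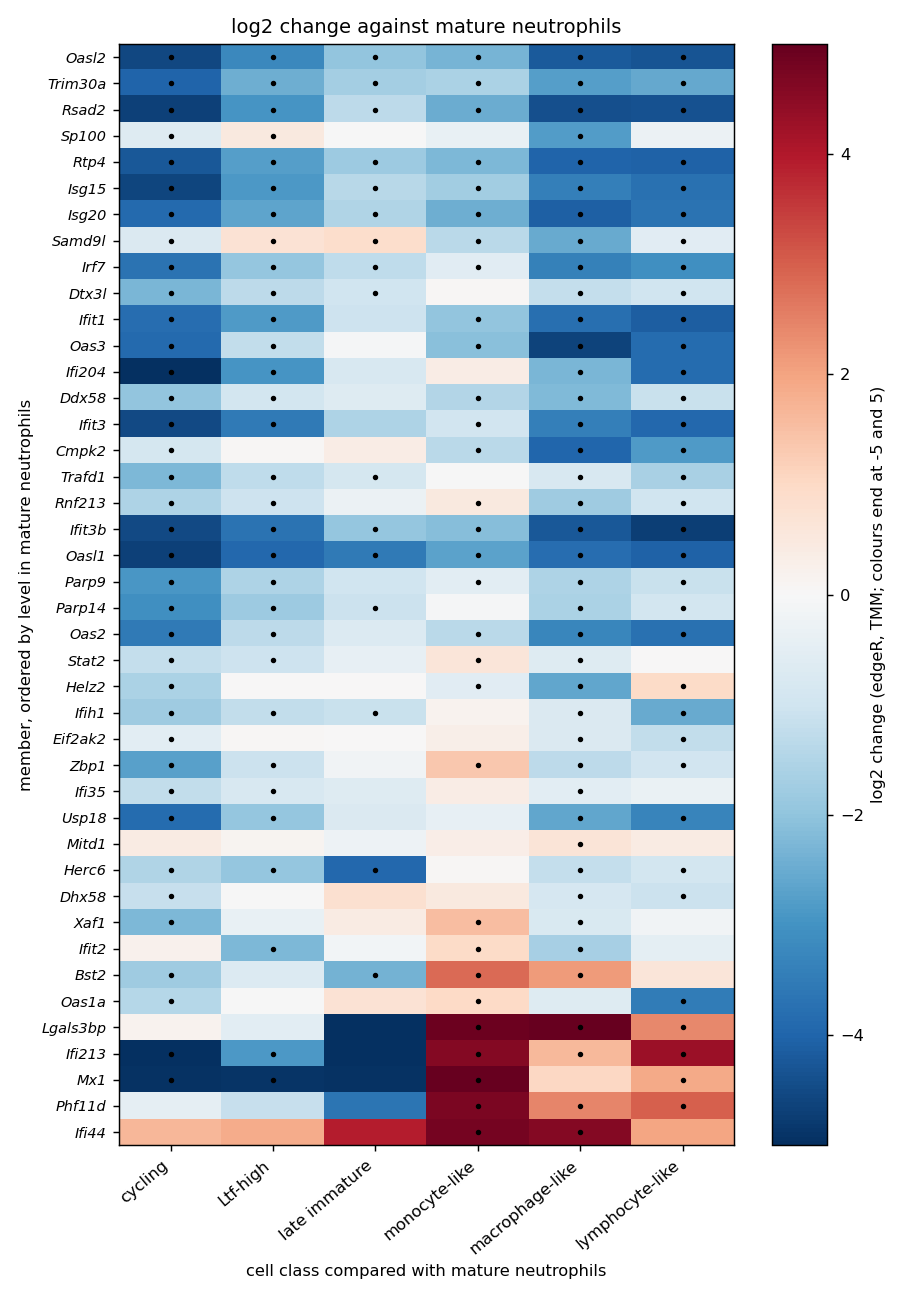
Fitted log2 change of each member (rows, ordered by level in mature neutrophils) in 6 classes against mature neutrophils, with a dot where the edgeR adjusted p was under 0.05 and colours that end at -5 and 5. Nearly all members are lower in cycling cells (37 of 42), while the 5 members at the bottom, lowest in mature neutrophils, are higher in monocyte-like cells; colours of genes with no UMI in a class, such as Mx1 in cycling cells, are fitted values and not folds.

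Activated neutrophils, which carry transcripts of the cytokine Il1a and the adhesion molecule Icam1, numbered 20 in YO1 and 536 in YO2. This is under the minimum of 30 cells per pool, so they were not tested. The summed share was 0.491% in YO1 and 0.359% in YO2, and 1 cell gave 23.8% of the YO1 sum, without which it was 0.407%. Mature cells had 0.380% and 0.442%, so the pools differed in which class was higher. The 13 and 104 activated cells with at least 2% S100a8 and S100a9, the limit of the mature class, had 0.520% and 0.339%. In YO2 the leading members were Oasl2 (563 CPM, mature 829), Isg15 (472, mature 198) and Trim30a (309.5, mature 506). Isg15 was 264 in the activated cells of YO1, from 7 UMIs, and 210.4 in its mature cells. Jak2, a kinase of cytokine receptors, stood at 440 CPM in the activated cells of YO2 against 84.8 in its mature cells. The eosinophil marker list stood at 263 CPM there against 43.1 in mature cells, and its part in these values was not tested.

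In monocyte-like cells the summed share was 0.387% in YO1 and 0.379% in YO2, near that of mature neutrophils, or 12.4 and 16.6 member UMIs per cell, more per cell than any of the other 7 classes. The leading members, of which Sp100, Trim30a and Oasl2 also lead in mature neutrophils, were Sp100 (460.4 and 472 CPM), Trim30a (242 and 294), Oasl2 (240.1 and 281), Ifi204 (229 and 201) and Dtx3l (178 and 196), the ubiquitin ligase partner of Parp9. In the edgeR fit, 12 members were higher and 18 lower, where 39.4% of all genes were higher and 32.2% lower. The median was -0.04 for members and 0.21 for all genes. The split depended on the scale, because total-UMI scaling shifted the all-gene median by 0.85 and gave 23 higher (58.7%) and 14 lower (16.2%), DESeq2 gave 21 higher (49.3%) and 14 lower (20.1%), and UMIs per cell gave 33 higher (87.7%) and 0 lower (2.97%).

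Of the members higher in monocyte-like cells, several were nearly silent in neutrophils. Mx1, a dynamin-like antiviral GTPase whose gene is defective in this strain, stood at 42.9 and 28.1 CPM in monocyte-like cells and at 0.770 and 0.370 in mature neutrophils (log2 change 5.07, SE 0.36, edgeR adjusted p = 2.8e-09). Lgals3bp, a secreted glycoprotein, stood at 121 and 138 against 2.89 and 1.92 (4.90, SE 0.25, adjusted p = 1.6e-11). Ifi213, a DNA sensor, stood at 47.4 and 32.7 against 0.674 and 1.04 (4.60, SE 0.33, adjusted p = 1.7e-09), and Bst2, which tethers budding virus to the membrane, at 128 and 98.6 against 10.0 and 7.33 (2.85, SE 0.21, adjusted p = 5.2e-10). Lower members were led by Oasl1 (-2.67, SE 0.24, adjusted p = 9.1e-09), Rsad2 (-2.49, SE 0.23, adjusted p = 1.1e-08) and Isg20, an RNA exonuclease (-2.42). The members that were higher on all 3 scales were Ifit2, Zbp1, Ifi213, Xaf1, Bst2, Rnf213, Stat2, Mx1, Oas1a, Phf11d and Lgals3bp, of which Rnf213 and Stat2 lost the call without any 1 of the 4 sums, Ifit2 without YO1 of either class and Oas1a without YO1 of the monocyte-like class. None was lower on all 3.

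Macrophage-like cells had a share of 0.121% in YO1 and 0.149% in YO2. Of the members, 34 were lower and 6 higher, where 33.4% of all genes were lower and 44.4% higher, with a median of -1.71 for members and 0.33 for all genes. Lgals3bp was the leading member at 147 and 182 CPM (log2 change 5.26, SE 0.25, edgeR adjusted p = 3.8e-12), followed by Trim30a at 100.9 and 137. Oas3, the long-RNA sensor of the Oas family, stood at 4.32 and 8.85 against 96.6 and 96.1 in mature neutrophils (-4.62, SE 0.26, adjusted p = 1.1e-11), and Rsad2 at 29.4 and 30.4 against 313 and 382 (-4.40, SE 0.25, adjusted p = 1.8e-11). Bst2 (2.13, SE 0.21, adjusted p = 1.6e-08) and Ifi213 (1.62, SE 0.41, adjusted p = 0.0018) were higher, as in the monocyte-like cells. Total-UMI scaling, which shifted the all-gene median by 0.84, gave 24 lower (19.6%) and 7 higher (60.2%), and DESeq2 25 lower (21.1%) and 7 higher (54.1%). On the per-cell scale, 8 members were lower (2.62% of genes) and 24 higher (90.6%).

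Lymphocyte-like cells had a share of 0.178% and 0.240%, and 0.230% on average over the pools without the protease-carrying cells, against 0.209% with them. Sp100 (462 and 602 CPM) gave 25.9% and 25.1% of the member UMIs, followed by Samd9l (180.1 and 218). The edgeR fit called 29 members lower and 5 higher, where 30.3% of all genes were lower and 39.8% higher, and 28 lower and 5 higher without those cells. The median was -1.12 for members and 0.28 for all genes. All 5 Oas genes were lower, as were Rsad2 (-4.34, SE 0.28, adjusted p = 9.9e-11) and Ifi204 (-3.84, SE 0.29, adjusted p = 6.8e-10), while Helz2 (113 and 151 CPM against 38.4 and 30.9; log2 change 0.97, SE 0.20, adjusted p = 0.00021) and Ifi213 (31.2 and 37.7 against 0.674 and 1.04; 4.30, SE 0.38, adjusted p = 1.8e-08) were higher. Total-UMI scaling, which shifted the all-gene median by 0.99, gave 19 lower (15.8%) and 12 higher (59.3%), DESeq2 20 lower (19.0%) and 9 higher (50.9%), and UMIs per cell 16 lower (8.11%) and 21 higher (74.3%).

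Part of the low member levels in lymphocyte-like and macrophage-like cells was close to that of neutrophil genes found in the same cells. Cxcr2, which marks neutrophils, stood in lymphocyte-like cells at 5.16% of its mature-neutrophil level in YO1 and 10.4% in YO2, and Csf3r, the G-CSF receptor, at 7.28% and 13.1%. Oasl2 stood there at 6.26% and 13.9%, Rsad2 at 8.85% and 10.6%, and Rtp4 at 8.56% and 14.8%. Il1b, a cytokine transcript abundant in mature neutrophils and made by other myeloid cells, stood there at 9.32% and 22.04%. In macrophage-like cells the receptors stood at 4.71% and 8.35% and at 6.23% and 9.96%, Oasl2 at 8.13% and 12.4% and Rsad2 at 9.39% and 7.95%. Trim30a, at 26.0% and 40.8% in lymphocyte-like cells, and Sp100, at 149% and 173%, were above the receptors and Il1b. Isg15 was above both receptors, at 12.1% and 17.9% in lymphocyte-like cells and 14.2% and 20.2% in macrophage-like cells. In monocyte-like cells Oasl2 stood at 38.3% and 33.9% and Rsad2 at 33.9% and 30.6%, against 7.84% and 10.8% for Cxcr2. In the cycling cells Il1b stood at 2.54% and 10.2% of the mature level and Oasl2 at 4.05% and 12.2%. The part of free RNA in these levels was not tested.

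The rest of the interferon pathway was followed in a list of 31 receptors, kinases, factors and sensors, of which 28 matched a row and 26 were tested. The ligand Ifnb1 was at 0 in every neutrophil class of both pools, and Ifng stood at 12.7 and 0.754 CPM in lymphocyte-like cells. In cycling cells 18 of the 26 (69.2%) were lower and 2 (7.69%) higher, where 31.0% and 29.1% of all genes were. Per cell 1 of 25 was lower and 16 higher, where 2.69% of all genes were lower and 80.2% higher. In Ltf-high cells 18 (69.2%) were lower and 2 (7.69%) higher, against 28.1% and 17.2% of genes, and in late immature cells 7 (26.9%) and 0, against 14.4% and 3.51%. In the Ltf-high cells the receptor chain Ifnar1 stood at 19.7 and 22.3 CPM against 49.9 and 47.4 in mature cells (log2 change -1.48) and Irf1, an early interferon-responsive factor, at 110.4 and 142 against 471 and 473 (-2.16). Socs3, a feedback inhibitor of cytokine signalling, stood at 18.7 and 40.7 against 457 and 296 (-4.05). Mb21d1, which encodes the DNA sensor cGAS, went the other way in cycling cells, at 73.5 and 59.0 against 4.52 and 9.92 (2.67). In monocyte-like cells 11 (42.3%) were higher and 14 (53.8%) lower, against 39.4% and 32.2% of genes. In macrophage-like cells these were 8 (30.8%) and 15 (57.7%), against 44.4% and 33.4%, and in lymphocyte-like cells 5 (19.2%) and 13 (50%), against 39.8% and 30.3%. Per cell 0 of 25 were lower in the first 2 of these classes and 5 in lymphocyte-like cells, with 20, 21 and 15 higher. Of all genes, 2.97%, 2.62% and 8.11% were lower per cell in these classes and 87.7%, 90.6% and 74.3% higher. Irf8 (383 and 397 in monocyte-like cells against 5.20 and 4.59 in mature neutrophils, 5.46) was higher in all 3 classes.

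How member UMIs were distributed over single cells was read after thinning each cell to 500 UMIs, which left out 187 of 9488 mature cells of YO1, 18 of 2077 Ltf-high cells and none of either class in YO2. A mature cell then held 1 member UMI in the median of both pools, 5 at the 90th percentile of both, and 15 and 16 at the 99th, with a highest value of 46 and 47. Ltf-high cells held 1 in the median, 2 at the 90th percentile and 5 and 4.72 at the 99th. At least 10 of 500 UMIs (2%) came from members in 268 of 9301 mature cells of YO1 (2.88%, exact Clopper-Pearson 95% interval 2.55 to 3.24) and in 302 of 9116 of YO2 (3.31%, 2.95 to 3.70), and without thinning in 2.14% and 2.63%. In Ltf-high cells the shares were 0.146% (0.0301 to 0.425) and 0.466% (0.0565 to 1.67). Cycling cells had 1 such cell of 549 in YO1 and 0 of 66 in YO2, which allows a share of up to 4.55% by a limit of 3 counts and 5.44% by the exact interval. Late immature cells had 0 of 407 and 1 of 31 (3.23%, 0.0816 to 16.7). At equal depth the share of such cells was higher in mature than in Ltf-high cells of both pools, and the interval of late immature cells of YO2 spans the mature value.

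Monocyte-like cells resembled mature neutrophils in YO1 (2.87%, 2.06 to 3.89) and were lower in YO2 (1.64%, 0.976 to 2.58). Macrophage-like cells had 0.475% and 0.481%, and lymphocyte-like cells 1 cell of 396 and 0 of 528. The variance of the thinned member count divided by its mean was 4.95 and 4.96 in mature cells, 3.99 and 2.91 in monocyte-like cells, 4.23 and 3.27 in macrophage-like cells, 5.03 and 4.54 in activated cells, 1.69 and 6.03 in late immature cells, 1.65 and 1.89 in cycling cells, 1.51 and 1.602 in Ltf-high cells and 1.64 and 1.30 in lymphocyte-like cells, where 1 is the value of an even, Poisson spread. Lymphocyte-like cells therefore held their members more evenly than mature neutrophils did. Cells of a pool share a library and are not replicates, so these shares carry no test.

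**Figure D4:**
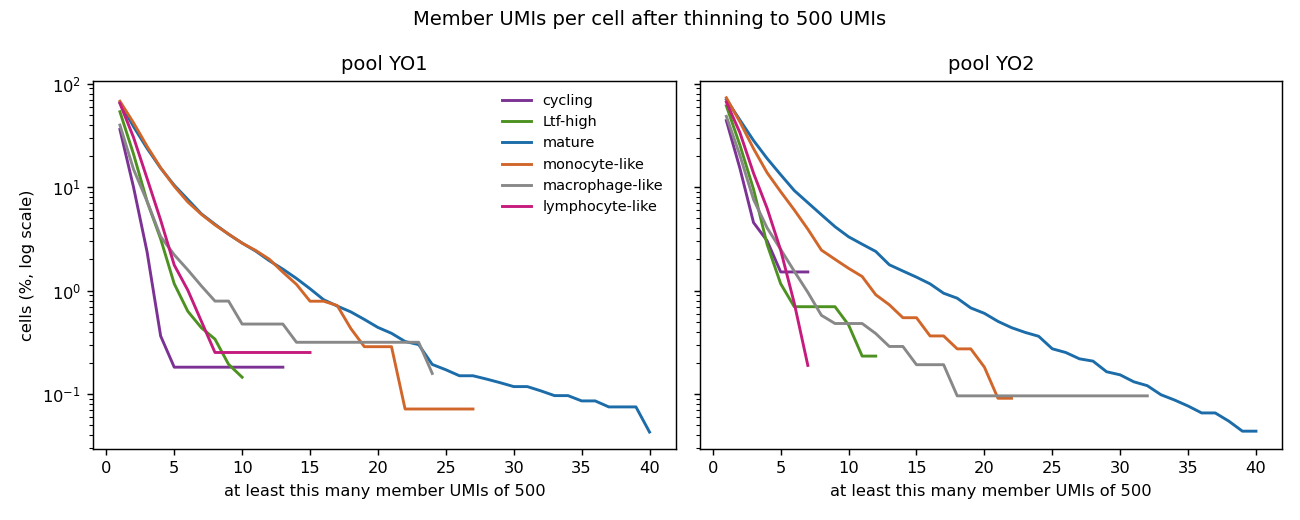
Percentage of cells (log scale) with at least the given number of member UMIs after thinning to 500 UMIs per cell, in 6 classes and both pools. The mature neutrophils extend to the end of the axis at 40 of 500 UMIs in both pools, while Ltf-high cells end at 10 in YO1 and 12 in YO2.

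Members differed in how far they were concentrated in the cells rich in the others. Mature cells of at least 500 UMIs were ranked by the share of all members but one, and the fraction of the UMIs of that one member found in the top 10% of cells was recorded. These cells held 9.85% of all UMIs in YO1 and 9.60% in YO2, as counted in the ranking for Ifit2. Ifit2 had 93.5% and 94.1% of its UMIs there, Ifit3 88.2% and 82.6%, Ifit3b 78.5% and 81.4%, and Ifit1 78.5% and 76.2%. These are the Ifit genes of the list, and Ifit1 had 823 and 1570 UMIs in these mature cells. Herc6, Usp18 and Rsad2 followed with 68.2% and 55.6%, 64.4% and 53.2%, and 60.8% and 56.5%. Usp18 removes Isg15 from proteins and Herc6 attaches it.

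Several other abundant members were less concentrated. Oasl2 had 31.4% and 29.1% of its UMIs in the top 10% of cells, Sp100 25.2% and 25.8%, Trim30a 23.2% and 20.1%, and Samd9l 22.7% and 21.8%. Isg15 lay between, at 47.6% and 42.6%. Over the 38 members with at least 20 UMIs in each pool the median was 37.6%, and 15 of them had 40% or more. Of 7968 other genes, ranked against all members, the median was 9.28%, and 12 genes (0.151%) had 40% or more. So every one of these members but Lgals3bp (20.0% and 7.69%, from 30 and 26 UMIs) and Oas1a (14.3% and 34.0%) was above 20% in both pools. The cells of the top 10%, ranked by all members, had a median of 994 UMIs in YO1 against 1014 in the others and 1307 against 1326 in YO2, and calprotectin was 5.71% against 6.35% and 4.49% against 5.19% of their UMIs. They held 42.9% and 39.4% of all member UMIs.

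In Ltf-high cells the same measure separated the members further. Ifit1 had 77.6% and 75.0% of its UMIs in the top 10% of cells, from 76 and 40 UMIs, and Isg15 48.9% and 36.8%. Sp100 had 12.6% and 11.5% and Samd9l 12.6% and 10.4%, where the cells held 9.69% and 9.77% of all UMIs in the ranking for Sp100. These 2 genes, the leading members of the class, were spread over Ltf-high cells almost as evenly as all UMIs. In monocyte-like cells the Ifit genes were again at the top (Ifit2 90.1% and 83.6%), and Trafd1 was lowest by the mean of the pools (22.5% and 20.8%), while Sp100 had 27.6% and 25.9%.

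**Figure D5:**
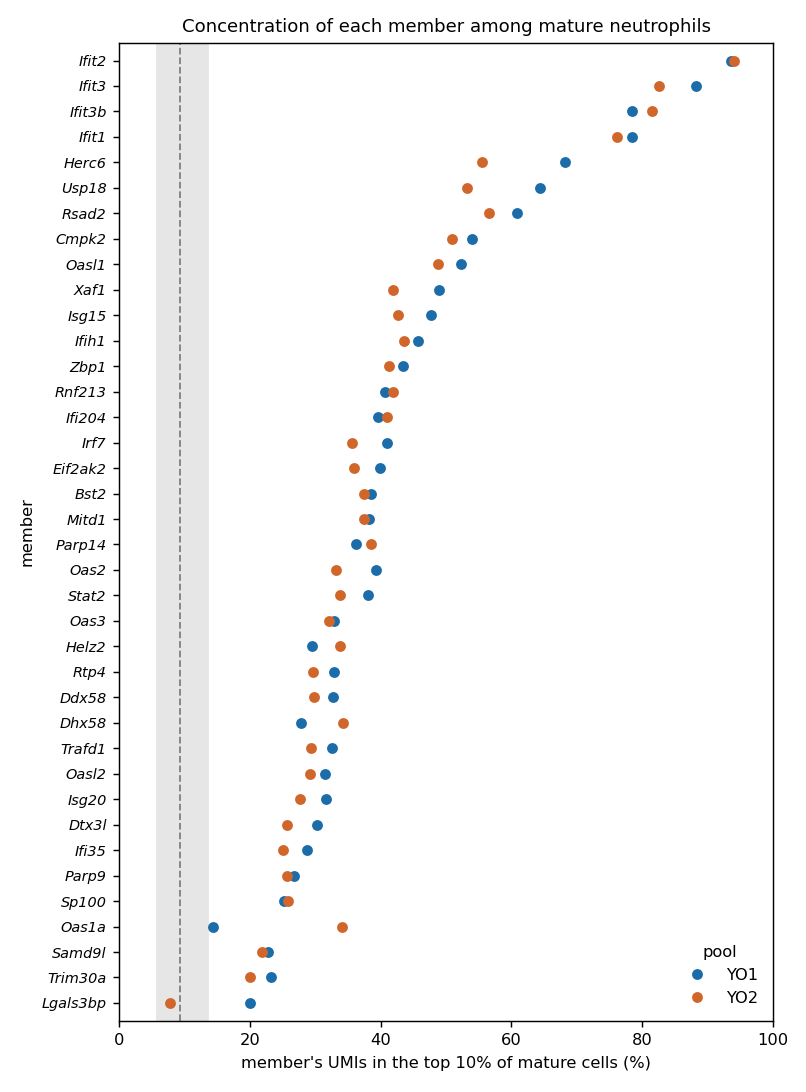
Percentage of the UMIs of each of 38 members that fell in the top 10% of mature neutrophils ranked by the other members, with 1 point per pool. The dashed line is the median of 7968 other genes (9.28%) and the grey band their 5th to 95th percentile (5.74 to 13.6%), and the Ifit genes lie between 76% and 94%.

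The pools were compared by the ratio of YO2 to YO1 for members with enough UMIs, with 95% counting intervals and no test. In mature cells 16 of 37 members (43.2%) had an interval above 1 and 5 (13.5%) had one below 1, with a median ratio of 1.12. Of 6830 other genes in the same cells, 23.7% had an interval above 1 and 20.3% below, with a median of 1.02. Oas1a (2.75, 1.81 to 4.18), Ifit2 (2.10, 1.57 to 2.80) and Ifit1 (1.46, 1.34 to 1.58) were among the higher in YO2, and Bst2 (0.732, 0.556 to 0.964) was the lowest. Oasl2 was higher in YO2 in mature cells (1.32, 1.28 to 1.36), cycling cells (3.97, 2.73 to 5.76) and lymphocyte-like cells (2.94, 2.03 to 4.26). In monocyte-like cells 10 of 41 members (24.4%) had an interval below 1 and 4 (9.76%) above, against 20.7% and 16.1% of 7433 other genes. Round, cartridge and mice changed together between the pools, and their parts cannot be told apart.

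Member shares on both sides of the class limits were as follows. Cells with 2 to 3% calprotectin, just inside the mature class, had a member share of 0.478% in YO1 and 0.538% in YO2, and cells with 1 to 2%, just outside it, had 0.453% and 0.515%. Cells with 5 or 6 Ltf UMIs, just inside the Ltf-high class, had 0.254% and 0.398%, and late immature cells with 3 or 4 had 0.197% and 0.448%. Cycling cells with 2 UMIs of the cycling genes had 0.137% and 0.265%, and Ltf-high cells with 1 had 0.141% and 0.132%. Late immature cells with 10 to 14 Ngp UMIs had 0.197% and 0.813%, the latter from 8 cells, and cells with 3 to 9, in no class, had 0.293% and 0.353%. Activated cells with 3 UMIs of the activation genes had 0.642% and 0.371%, and mature cells with 2 had 0.445% and 0.339%.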

How the data were processed

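The matrix holds raw UMI counts per gene and cell, deposited by the authors for both pools together; per the submitters' processing notes reads were aligned to mm10 and demultiplexed with BCL Convert 3.6.3. Cells were kept with at least 200 UMIs, 100 genes and at most 20% mitochondrial UMIs, removing 847 barcodes in pool YO1 and 505 in pool YO2. No doublet caller was run. Cells with at least 3 UMIs of a marker list of other cells and at least 2% S100a8 and S100a9 were left out as mixed. Cells tied between lists were left out too, but a cell with markers of more than 1 list was kept under the larger. Antibody and sample tag libraries were not analysed here.

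UMIs were summed per pool and class of at least 30 cells, giving 14 sums of 7 classes, and fitted with edgeR 4.0.16 (R 4.3.3; filterByExpr, TMM, robust quasi-likelihood fit with the pool as a block, threshold 0.05). The activated class fell short of 30 cells in YO1 and could not be fitted. The 79 genes used to gate cells were left out of the tests. The pool pairs the sums because the labels give each round its own cartridge. DESeq2 1.42.0 and the other alternatives are given in the closing section, and the fit was tested on simulated data. Intervals are 95% and cover counting error only.

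The members, the pathway list and the classes were chosen with earlier results of these data known. Any member may be named, with values for the 12 most abundant in mature cells and, per contrast, the called members with the 3 largest and 3 smallest changes. The values of 1 gene of the pathway list are not reported here. Examples beyond these were picked after their values were seen.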

Additional observations from a re-analysis of the deposited data

Results flagged for a closer look

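Member UMIs also appeared in cells that entered no comparison, above the limit that a count of 0 allows. As the mean over the pools, members made up 0.152% of UMIs in 133 basophil- or mast-gated cells, 0.182% in 282 dendritic-gated cells, 0.328% in 682 endothelial-gated cells, 0.217% in 339 eosinophil-gated cells, 0.117% in 45 epithelial-gated cells and 0.0868% in 443 plasma-gated cells. Mixed cells, with a marker list of other cells and at least 2% S100a8 and S100a9 (2054), had 0.304%. Cells tied between lists (122) had 0.217%, and cells that met no gate (4791) had 0.430%, near the 0.411% of mature neutrophils.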

How the results depend on the processing

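The number of members called against mature cells, both directions together, stayed within 1.5 times the main count in cycling, Ltf-high, monocyte-like, macrophage-like and lymphocyte-like cells under every alternative run. The direction did not hold on the scale of UMIs per cell: of members called lower in the main fit, 16 were called higher per cell in cycling, 7 in Ltf-high, 0 in late immature, 10 in monocyte-like, 17 in macrophage-like and 9 in lymphocyte-like cells. In late immature cells the 16 calls became 9 with DESeq2, 8 with total-UMI scaling, 10 with no pool block, 9 with mixed-marker cells kept and 9 with UMIs per cell. Leaving out each sum in turn gave 28 to 36 calls in cycling, 25 to 29 in Ltf-high, 4 to 17 in late immature (4 without YO1 of that class), 23 to 26 in monocyte-like, 37 to 39 in macrophage-like and 31 to 35 in lymphocyte-like cells. Without the pool block no other count moved by over 1.5 times. The summed share in monocyte-like cells, 0.383%, was 0.409% without the top 5% of cells by UMIs and 0.391% without protease-marked cells, and in macrophage-like cells, 0.135%, it was 0.170% as a mean over cells and 0.178% without the top 5%. Of 1244 alternatives for 96 named values, which leave out the scale of UMIs per cell, 9 reversed, where the cause was not tested: with DESeq2, Eif2ak2 in cycling (0.037), Sp100 in late immature (0.426) and Samd9l (0.111) and Sp100 (0.370) in lymphocyte-like cells; with total-UMI scaling, Eif2ak2 in cycling (0.081), Samd9l (0.431) and Sp100 (0.686) in lymphocyte-like cells, and Irf7 (0.296) and Sp100 (0.508) in monocyte-like cells. Another 92 of the 1244 alternatives kept the direction but lost the call of the main fit, 4 gained a call, and 1139 were the same. The scalings by cell number and without protease-marked cells were chosen after seeing the data. The activated contrast was not run under any setting. The number of cells limits the late immature and activated classes most, since they rest on 31 and 20 cells in their smaller pool.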

Other observations

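Genes outside the member and pathway lists also differed in level between the 10% of mature neutrophils richest in member UMIs and the other mature cells. Ifit1bl1, an Ifit-like gene, stood at 74.8 CPM in the rich cells of YO1 and 70.9 in those of YO2, against 0.646 and 0.409 in the others. Slfn5, of the Schlafen family, stood at 936 and 1117 against 57.6 and 108, and Ifi47, an interferon-inducible GTPase, at 217 and 265 against 16.5 and 26.8. Slfn8 stood at 313 and 425 against 38.4 and 49.1, and the chemokine gene Cxcl10 at 56.1 and 59.4 against 6.78 and 9.50. Ifi207, Gbp5, Plac8, Gbp3 and Ifit1bl2 complete the 10 with the largest ratios. Of 3797 genes outside the member list with at least 20 CPM in the rich cells, 53 (1.40%) were at least 2-fold higher there in both pools, and the median ratios were 0.973 and 0.969. Cells of a pool are not replicates, so no test is given.

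Among the pathway genes, the ratio of rich to other mature cells was 2.66 and 2.38 for Irf9 and 3.47 and 2.41 for Adar, an RNA-editing enzyme. It was 0.948 and 0.922 for the receptor chain Ifnar1 and 1.04 and 1.08 for the kinase Jak1. Ifnb1 and Ifng had no UMI in these cells.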
